A study of Mus musculus with 3 samples.

Results

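Voltage-gated and potassium channel genes were taken as the protein-coding genes of the GENCODE vM1 annotation on the mouse assembly mm9 whose symbols begin with Kcn or Cacn, or with Scn, a digit and a or b. The rule found 134 genes among 22208 protein-coding genes, and it used only their names, although the families were picked with earlier results of these data known. They were described with 3 ChIP-Seq libraries of mouse embryonic stem cells (ESCs), 1 library per group. For H2A.Z WT and for AP3, KH2 ESC lines carried a lentiviral transgene under a doxycycline-inducible CMV promoter with a C-terminal YFP tag, were sorted for YFP, had their endogenous H2A.Z depleted with a hairpin against its own transcript, and were precipitated through the tag with an anti-GFP antibody. AP3 carries the H2A residues at the 3 positions where the acidic patch of H2A.Z diverges, so that the 2 transgenic groups share the depletion, the tag and the induction and differ in these residues. The H3K27me3 library is labelled wild type and was made with an antibody against that histone mark, and all 3 libraries bear the strain label V6.5, a 129SvJae and C57BL/6 hybrid line, although the transgenic lines are described as derived from KH2. No expression was used here, so the identity of the cells could not be checked against marker genes.

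Channels of these families open in response to membrane voltage, calcium, sodium, nucleotides or stretch, set the resting potential and shape the action potentials of neurons, heart and muscle. In ESCs, the promoters of many genes for later lineages carry H3K27me3, the mark laid down by Polycomb repressive complex 2, together with marks of activity, a state called bivalent. H2A.Z, a variant of the histone H2A, sits in nucleosomes next to transcription start sites of both active and bivalent genes.

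The deposited data were lists of enriched regions, given as chromosome, start and end on mm9 with no height or read count. At a Poisson threshold of 1e-09, 78359 regions were listed in the H2A.Z WT library, 14599 in that of H2A.Z AP3 and 16970 in that of H3K27me3. The read depth behind them is unknown. A promoter was called for a library when a region overlapped any base within 2 kb of any annotated start of the gene, and the amount was given as the bases covered in that window. A gene without a region had no signal past the threshold, which is not the same as no signal. With 1 library per group no test of a difference between libraries was possible. Shares of genes carry 95% Wilson intervals, which cover counting error only and treat genes as independent.

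The sequence around the starts differed widely among the channel genes, and it is shown here because the share of channel genes with H3K27me3 was higher at higher CpG counts. Each line holds the 30 bases richest in CpG dinucleotides within 500 bp of the most upstream start of a gene, read 5′ to 3′ on the strand of the gene from mm9, with each CpG in capitals. The first 3 lines are promoters of 70 CpG or more, taken from Kcnmb4 on the minus strand (chr10:115910897-115910926), Kcng3 on the minus strand (chr17:84030983-84031012) and Kcnc1 on the plus strand (chr7:53651857-53651886), all with H3K27me3. The last 3 lines are promoters whose windows held no region of any library, taken from the minus strand at Scn1a (chr2:66278424-66278453), Scn7a (chr2:66622675-66622704) and Kcnj13 (chr1:89291257-89291286).
Kcnmb4: CGtCGgggCGcCGggCGctCGgcCGCGgCG
Kcng3: CGaCGgCGCGgcctcccCGtgCGCGCGgCG
Kcnc1: gcCGCGggctggaCGCGgacCGCGCGaaCG
Scn1a: CGtgaaaagatttactgcagttCGctgcCG
Scn7a: gtacccCGcttttcCGtcccatttcaccCG
Kcnj13: tacaaaCGacactacaggttaaaaccacCG
The stretches of Kcnmb4, Kcng3 and Kcnc1 held 9, 9 and 8 CpG. Those of Scn1a, Scn7a and Kcnj13 held 3, 3 and 2.

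Most channel promoter windows held both an H2A.Z WT and an H3K27me3 region. H2A.Z WT was called at 115 of the 134 promoters (85.8%, interval 78.9 to 90.7), against 61.7% of all protein-coding genes. H3K27me3 was called at 88 (65.7%, interval 57.3 to 73.2), against 18.2% of all genes. Both were found at 86 promoters (64.2%), against 17.3% of all genes, and 74.8% of the channel genes with H2A.Z WT had H3K27me3, against 28.1% of all genes with H2A.Z WT. Regions in the same window need not overlap. In the channel windows 111 of 249 H2A.Z WT regions (44.6%) overlapped an H3K27me3 region. Of the 219 H3K27me3 regions there, 126 (57.5%) overlapped an H2A.Z WT region. H2A.Z AP3 was called at 39 channel promoters (29.1%, interval 22.1 to 37.3), close to the 23.2% of all genes. None of the 3 libraries had a region at 17 channel promoters (12.7%), against 36.2% of all genes.

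The amounts followed the calls. The median channel promoter had 900 bases of H2A.Z WT, against 300 over all genes, and 737.5 bases of H3K27me3, against 0 over all genes. The median promoter window was of similar size in both sets, at 4402.5 bp for channel genes and 4058 bp for all genes. H3K27me3 covered more bases than H2A.Z WT at 55 channel promoters and fewer at 60. At least 2000 bases were covered by H3K27me3 at 34 channel promoters (25.4%), against 4.54% of all genes, and by H2A.Z WT at 17 (12.7%), against 4.08%.

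**Figure D1:**
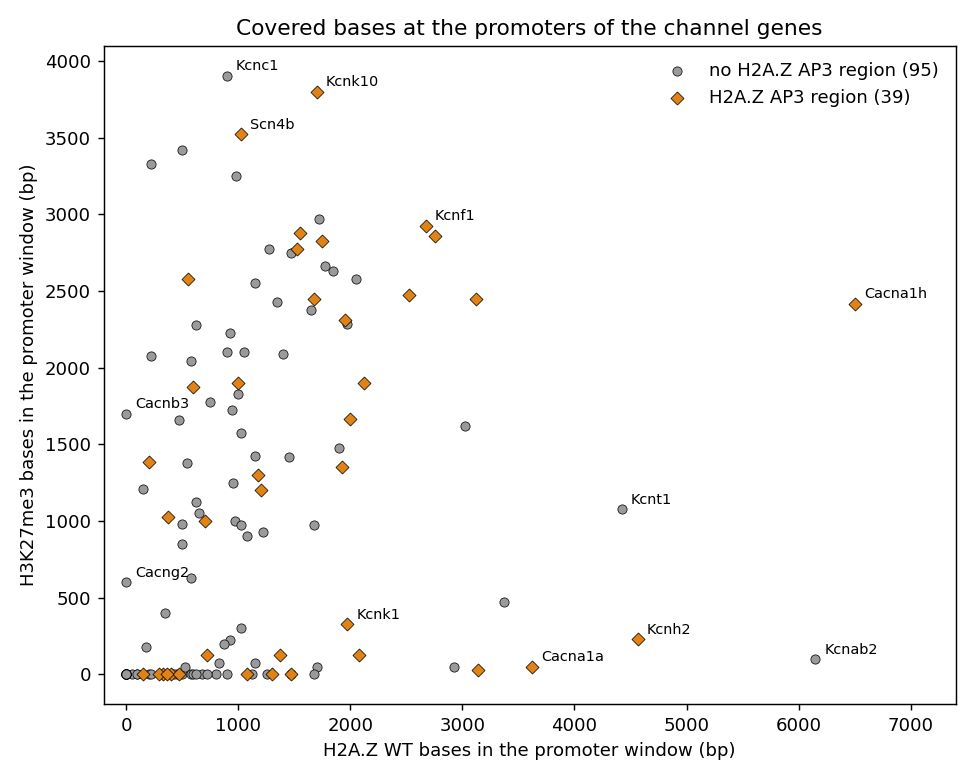
Each point is 1 of the 134 channel genes, placed by the bases that H2A.Z WT (horizontal axis, bp) and H3K27me3 (vertical axis, bp) covered in its promoter window, and orange diamonds mark the 39 genes with an H2A.Z AP3 region. Cacna1h lies farthest right with 6501 bases of H2A.Z WT, Kcnc1 highest with 3902 bases of H3K27me3, and a row of points along the bottom holds the genes with H2A.Z WT and little or no H3K27me3.

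H2A.Z AP3 lay at promoters that also had H2A.Z WT, in channel genes as in genes at large. All 39 channel promoters with an H2A.Z AP3 region also had an H2A.Z WT region, beside 94.5% of all genes with H2A.Z AP3. Of the 49 H2A.Z AP3 regions in these windows 45 overlapped an H2A.Z WT region. The H2A.Z AP3 bases at channel promoters came to 10.0% of the H2A.Z WT bases, against 14.3% over all genes, where sums over separately called regions also move with how much was called in each library. Of the channel genes with H2A.Z WT, 33.9% (interval 25.9 to 43.0) had H2A.Z AP3, against 35.6% of all genes with H2A.Z WT. All 3 libraries had a region at 30 channel promoters (22.4%), against 7.91% of all genes.

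At channel promoters the intervals for H2A.Z AP3 with and without H3K27me3 overlapped widely. With H2A.Z WT and H3K27me3, H2A.Z AP3 was called at 30 of 86 (34.9%, interval 25.7 to 45.4), against 45.7% of all such genes. With H2A.Z WT and no H3K27me3, it was called at 9 of 29 (31.0%, interval 17.3 to 49.2), against 31.6% of all such genes. The order of these shares among channel genes was not stable. In the lists at 1e-12 they were 24.3% with H3K27me3 and 27.5% without it, and without chromosomes 6 and 8 they were 29.9% and 34.6%. The order also turned with windows of 1 kb (32.5% and 37.0%) and at the most upstream start alone (30.0% and 32.0%). Over all genes the share with H3K27me3 was the higher one in these 4 settings too, at 37.1% and 27.4% in the lists at 1e-12 and 41.6% and 28.1% without chromosomes 6 and 8.

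H2A.Z AP3 was called more often where H2A.Z WT covered more bases. It was made at 12 of 55 channel promoters (21.8%) that had H2A.Z WT of under 1000 bases, at 16 of 43 (37.2%) with 1000 or more but under 2000 bases and at 11 of 17 (64.7%) with 2000 bases or more. The same bands of all genes gave 27.9%, 49.8% and 68.0%. A window with more starts is longer and has more room for either histone: the median window of the 17 promoters in the top band was 14326 bp.

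Chromosomes 6 and 8 held 12 channel genes, all with H2A.Z WT, and 7 of them (58.3%) had H2A.Z AP3. On the other chromosomes 32 of 103 channel genes with H2A.Z WT (31.1%) had it. The same split was seen over all genes, at 62.5% and 31.9%. Without these chromosomes the H2A.Z AP3 bases were 7.24% of the H2A.Z WT bases at channel promoters and 10.7% over all genes. Kcna1, Kcna5, Kcna6, Kcnd2, Kcnn1, Kcnk1 and Cacna1a were the channel genes concerned.

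H3K27me3 at channel promoters was ordered by CpG content. The genes were split into 4 groups by cuts that divide all protein-coding genes about equally, a split chosen after the data were seen. Counted within 500 bp of the most upstream start, the median was 39 CpG in channel genes and 41 over all genes. In the group of 70 CpG or more lay 38 channel genes, and all 38 had H3K27me3 (100%, interval 90.8 to 100), against 27.2% of all genes in that group. From 41 to 69 CpG, 17 of 23 channel genes (73.9%) had it, against 25.1%. From 13 to 40 CpG, 32 of 59 (54.2%) had it, against 16.8%. At 12 CpG or fewer it was found at 1 of 14 channel genes, Cacna1a, with 50 bases. CpG was counted at the most upstream start, whereas calls took any start. In genes with several starts, such as Cacna1a with 11, the count and the call can describe different promoters. The 38 of 38 became 36 in the lists at 1e-12 and 36 with windows of 1 kb, and stayed 38 at the most upstream start alone.

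Kcnmb4 had the highest count, 141 CpG, and 1875 bases of H3K27me3. Kcng3, with 131 CpG, had 1416 bases, and Kcnc1, with 106 CpG, had 3902. Among the channel genes of 41 to 69 CpG, Cacnb1, Kcnh4 and Kcnk5 were without H3K27me3. The lowest count was 7 CpG, and of the genes with it Kcnj13 and Cacna1f had no region at the promoter and Kcnj15 had 100 bases of H2A.Z WT.

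**Figure D2:**
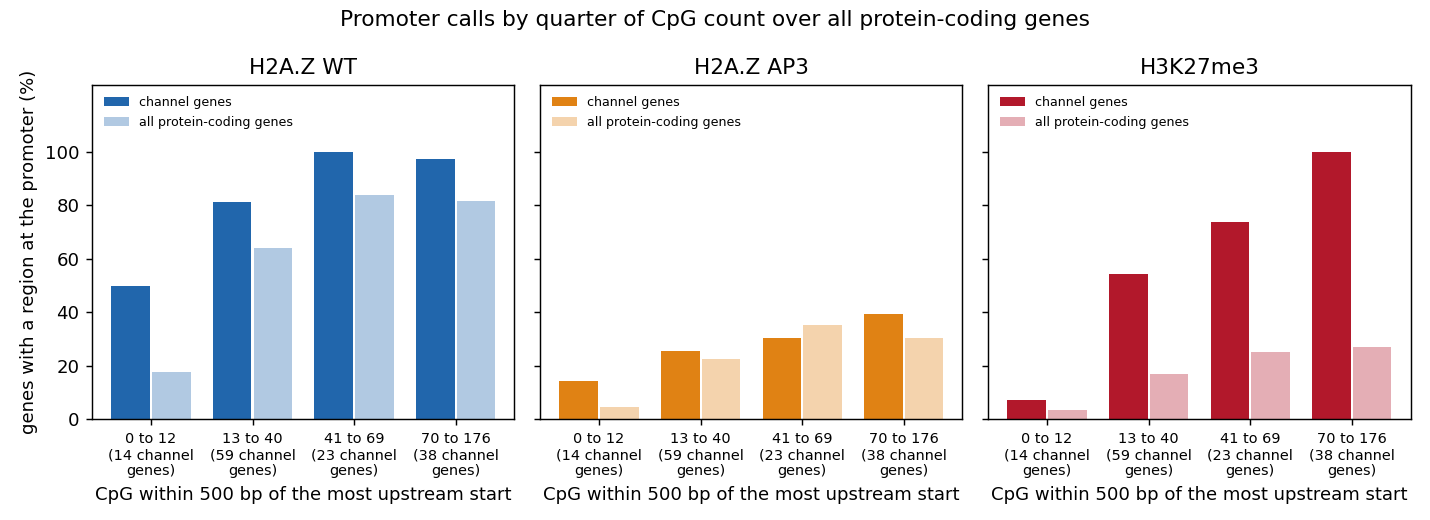
Bars give the percent of genes with a region at the promoter in each of 4 groups by CpG count (CpG within 500 bp of the most upstream start, cuts set over all protein-coding genes), dark for the channel genes and pale for all genes, with 1 panel per library. For H3K27me3 the dark bars climb from 7.14% to 100% while the pale bars climb from 3.57% to 27.2%.

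H2A.Z WT followed the same count less steeply. It was called at 7 of 14 channel genes (50.0%) with the fewest CpG, at 48 of 59 (81.4%), at 23 of 23 (100%) and at 37 of 38 (97.4%) with the most, against 17.7%, 64.0%, 83.7% and 81.5% of all genes. The exception at 70 CpG or more was Cacng2. H2A.Z AP3 was called at 14.3%, 25.4%, 30.4% and 39.5% of the channel genes in the same order, against 4.69%, 22.5%, 35.1% and 30.5% of all genes. From 41 to 69 CpG the share of channel genes was the lower one, but it rested on 7 of 23 genes, too few to read as a difference.

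Around the start, H2A.Z WT and H3K27me3 had different profiles. H2A.Z WT had its highest coverage just after the most upstream start, 46.3% of channel genes at +162 bp, against a highest value of 35.7% of all genes at +187 bp. It covered 39.6% in the 25-bp bin before the start, against 24.9% of all genes in that bin. H3K27me3 covered 14.9% of channel genes in the bin before the start and reached 39.6% at +1087 bp, more than 1 kb into the gene. Over all genes its highest value was 7.73%, at +987 bp. H2A.Z AP3 covered at most 9 channel genes in any bin (6.72%, at +137 bp), too few for a shape.

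**Figure D3:**
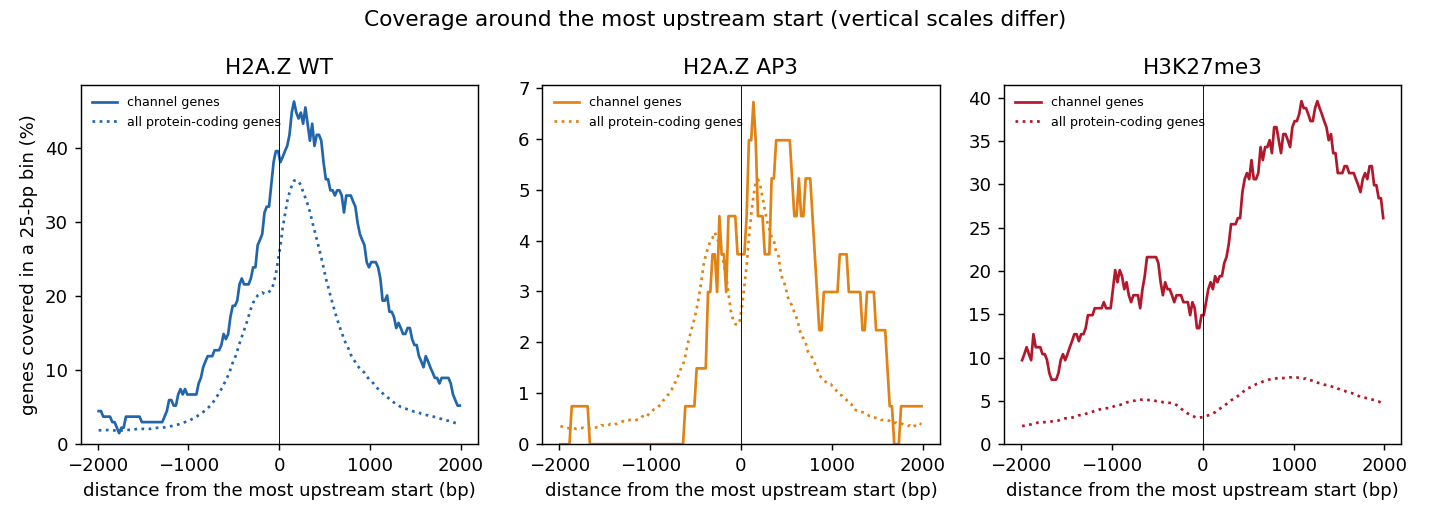
Percent of genes covered in each 25-bp bin by distance from the most upstream start (bp), for the 134 channel genes (solid) and all protein-coding genes (dotted), with 1 panel per library and separate vertical scales. H2A.Z WT of the channel genes is highest at +162 bp, while H3K27me3 is low at the start and highest near +1087 bp.

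The channel subfamilies differed in how many of their promoters were called. No subfamily was tested against another, since each holds few genes. The Kv1 to Kv4 genes, which encode the classic voltage-gated potassium channels, had H2A.Z WT at 15 of 17, H3K27me3 at 13 and H2A.Z AP3 at 6. Kcna1, a channel of axons, had 1750 bases of H2A.Z WT, 225 of H2A.Z AP3 and 2826 of H3K27me3. Kcnc1, a channel of fast-spiking neurons, had 900, 0 and 3902 bases, the most H3K27me3 of any member. Kcnc2, a relative of Kcnc1, had 1675, 850 and 2450 bases. Kcnd2, which carries A-type current, had 1925, 550 and 1350 bases. The pair without any region were Kcna10 and Kcnd1.

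Of the Kcna genes, 6 lie in a pair of clusters. On chromosome 6, Kcna1, Kcna5 and Kcna6 (chr6:126482571-126690680) each had all 3 libraries, with 225, 975 and 850 bases of H2A.Z AP3. In the lists at 1e-12, Kcna6 kept all 3, while Kcna1 had no H2A.Z AP3 and Kcna5 had no H3K27me3. Of all genes with H2A.Z WT, 62.6% of those on chromosome 6 had H2A.Z AP3, against 31.9% of those off chromosomes 6 and 8. On chromosome 3, Kcna2 and Kcna3 had H2A.Z WT and H3K27me3 without H2A.Z AP3. Their neighbour Kcna10, with 8 CpG at its start against 69 for Kcna2 and 103 for Kcna3, had none of the 3 libraries. The cause of the difference in H2A.Z AP3 between the clusters was not tested.

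The electrically silent subunits, which form no channel alone and modify those of the Kcnb genes, had H2A.Z WT at 10 of 10 and H3K27me3 at 9. Kcnf1 (chr12:17178908-17183694), a gene of 4787 bp, had 2675 bases of H2A.Z WT, 775 of H2A.Z AP3 and 2925 of H3K27me3 in its window. Kcng2 had 1000, 825 and 1900 bases. Kcnv2, a retinal subunit and the exception for H3K27me3, had 1475 bases of H2A.Z WT alone, and Kcns1 had the least H2A.Z WT, 225 bases, beside 2077 of H3K27me3.

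Among the Kcnh genes, H2A.Z WT was called at 7 of 8, H3K27me3 at 6 and H2A.Z AP3 at 1. That one was Kcnh2, the channel of the rapid cardiac delayed rectifier, with 4563 bases of H2A.Z WT, 354 of H2A.Z AP3 and 229 of H3K27me3 in a window of 15339 bp. Kcnh3 had the reverse proportion, 500 bases of H2A.Z WT and 3416 of H3K27me3, or 83.0% of its window. Kcnh8 had no region at its promoter or in its gene body.

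All 5 KCNQ genes had H2A.Z WT and H3K27me3, and none had H2A.Z AP3. Their median H3K27me3 was 2375 bases. Kcnq1, a cardiac and epithelial channel, had 1725 bases of H2A.Z WT and 2967 of H3K27me3. Kcnq3, a subunit of neuronal channels, had 625 and 1125. Their median CpG count was 87.

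The inward rectifiers, which hold the membrane near the potassium potential, had H2A.Z WT at 12 of 15, H3K27me3 at 10 and H2A.Z AP3 at 2. Kcnj12 had the most H2A.Z WT, 2000 bases, with 75 of H2A.Z AP3 and 1666 of H3K27me3. Kcnj11, the pore of the ATP-sensitive channel of pancreatic beta cells, had 1675 bases of H2A.Z WT and 975 of H3K27me3. Kcnj2 had 525 of H2A.Z WT and 50 of H3K27me3, and the latter was absent from the list at 1e-12. Kcnj1, Kcnj13 and Kcnj14 had no region at the promoter.

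The 2-pore leak channels, which set the resting potential, had H2A.Z WT at 14 of 14, H3K27me3 at 10 and H2A.Z AP3 at 7. Kcnk1 (chr8:128519002-128554583) had the longest H2A.Z AP3 region of any member, 1975 bp over an exon at the start, beside 1974 bases of H2A.Z WT and 325 of H3K27me3 in the window. It was 1 of only 2 members in which H2A.Z AP3 covered more bases than H2A.Z WT, and it lies on chromosome 8. Kcnk10 had 1700, 200 and 3800 bases. Kcnk2, which responds to stretch, had 1175, 200 and 1300. Kcnk3, which responds to acid, had 575, 0 and 2043, and Kcnk7 had the least H2A.Z WT, 292 bases. The longest H3K27me3 regions of any member lay at Kcnk13 (chr12:101202576-101206250, exon at the start) and Scn4b, 3675 bp each, and the next, 3550 bp, lay over an exon of Kcnk12 far from its start.

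The calcium- and sodium-activated channels, with their beta subunits, had H2A.Z WT at 9 of 12, H2A.Z AP3 at 4 and H3K27me3 at 5. Kcnt1, activated by sodium, had 4425 bases of H2A.Z WT and 1075 of H3K27me3 over a window of 27009 bp. Kcnn2, which contributes to the afterhyperpolarization of neurons, had 3143 bases of H2A.Z WT, 100 of H2A.Z AP3 and 25 of H3K27me3. Kcnn4, a channel of red and white blood cells, had 1075 bases of H2A.Z WT, 650 of H2A.Z AP3 and no H3K27me3.

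Kcnma1, the pore of the large-conductance calcium-activated channel, had no region at its promoter and 1 H3K27me3 region of 150 bases in a gene body of 504544 bp. The annotation bears on this, since its gene model may lack starts farther upstream. Upstream of its annotated start there is no other protein-coding gene for 266769 bp, and 200000 bp upstream lay an H2A.Z WT region of 750 bp (chr14:24822526-24823275) that overlapped both an H2A.Z AP3 and an H3K27me3 region. These lists cannot show to which transcript it belongs. Kcnh8 and Scn7a also had long stretches without another protein-coding gene upstream, of 892468 and 646309 bp. At Kcnh8 the nearest H2A.Z WT and H3K27me3 regions lay 123309 and 122484 bp upstream without overlapping, and there was no H2A.Z AP3. At Scn7a 1 H2A.Z WT region lay 221555 bp upstream. These genes were singled out after their values were seen.

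Potassium channel accessory subunits had H2A.Z WT at 12 of 13, H3K27me3 at 8 and H2A.Z AP3 at 2. Kcnab2, a cytoplasmic subunit of the Kv1 channels, had 6150 bases of H2A.Z WT, second among all members, with 100 of H3K27me3 and no H2A.Z AP3. Its window spanned 27644 bp and also held a start of another protein-coding gene, as did those of Cacna1f, Kcnab3 and Kcnu1. Without these 4 genes, H2A.Z WT was called at 86.2% of the channel promoters, H3K27me3 at 66.2% and H2A.Z AP3 at 30.0%. Kcnrg had no region.

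**Figure D4:**
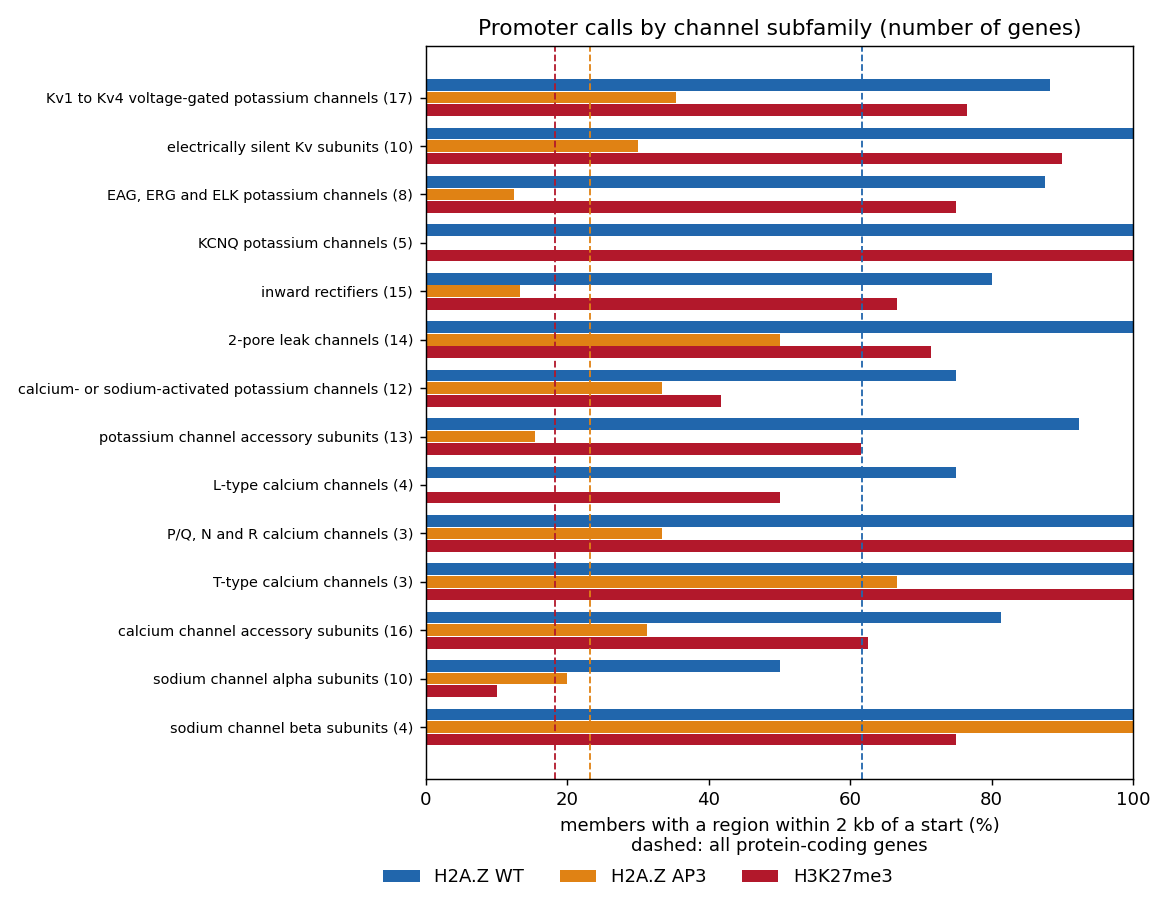
Bars give the percent of genes in each channel subfamily with a region within 2 kb of a start, for H2A.Z WT (blue), H2A.Z AP3 (orange) and H3K27me3 (red), with the number of genes in parentheses and dashed lines at the shares of all protein-coding genes (61.7%, 23.2% and 18.2%). The KCNQ genes reach 100% for H2A.Z WT and H3K27me3 with no orange bar, and the sodium channel alpha subunits reach 50.0% for H2A.Z WT and 10.0% for H3K27me3.

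Voltage-gated calcium channel genes carried some of the widest coverage. The T-type genes Cacna1g, Cacna1h and Cacna1i, which open near the resting potential, all had H2A.Z WT and H3K27me3. In Cacna1h, H2A.Z WT covered 6501 bases of a window of 14326 bp (45.4%), H2A.Z AP3 646 and H3K27me3 2416. As the gene maps show, the regions lay at different starts of the gene, H3K27me3 around the most upstream start and H2A.Z AP3 only near starts deep in the gene body. Counting the most upstream start alone left no H2A.Z AP3 at Cacna1h or Cacna1g. The L-type genes had H2A.Z WT at 3 of 4, H3K27me3 at 2 and no H2A.Z AP3. Cacna1d, a channel of pacemaker and hair cells, had 1275 bases of H2A.Z WT and 2775 of H3K27me3, whereas the cardiac Cacna1c had 1125 and 0, the skeletal muscle channel Cacna1s had 3374 and 474, and the retinal Cacna1f had none. Of the presynaptic channels, Cacna1a (P/Q-type) had 3625 bases of H2A.Z WT, 575 of H2A.Z AP3 and 50 of H3K27me3. Cacna1b (N-type) had 2925, 0 and 50, and its 50 bases of H3K27me3 were absent at 1e-12, as were those of Cacna1a. Cacna1e (R-type) had 977, 0 and 3249.

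The calcium channel accessory subunits had H2A.Z WT at 13 of 16, H3K27me3 at 10 and H2A.Z AP3 at 5. Cacna2d2, an alpha2delta subunit, had the most H2A.Z WT, 3125 bases, with 275 and 2450 of the other libraries. Cacnb3 and Cacng2 were the only members with H3K27me3 and no H2A.Z WT, with 1700 and 600 bases of H3K27me3. Cacnb3 had 600 bases of H2A.Z WT in the list at 1e-12, though none in the list at 1e-09. Cacng2, which traffics AMPA receptors, had no H2A.Z WT base in either list. Cacnb1, a skeletal muscle subunit, had 1300 bases of H2A.Z WT and 275 of H2A.Z AP3 without H3K27me3, and Cacna2d1, the target of gabapentin, had 350 bases of H2A.Z WT and 400 of H3K27me3.

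Sodium channel alpha subunits, which carry the upstroke of the action potential, had the lowest shares of any subfamily for H2A.Z WT and H3K27me3, though not for H2A.Z AP3. H2A.Z WT was called at 5 of 10, H2A.Z AP3 at 2 and H3K27me3 at 1. The median of the subfamily was 17.5 CpG. The 5 alpha genes clustered on chromosome 2 (chr2:65295175-66622971) had no H3K27me3. In that cluster Scn1a and Scn7a had no region, Scn3a had 100 bases of H2A.Z WT, Scn9a had 425, and Scn2a1 had 150 bases of H2A.Z WT and 225 of H2A.Z AP3. Scn8a, Scn10a and Scn11a also had no region within 2 kb of an annotated start. In contrast, the 4 beta subunits, small adhesion-like partners of the alpha subunits, all had H2A.Z WT and H2A.Z AP3, and 3 had H3K27me3. Scn4b had 1025 bases of H2A.Z WT, 300 of H2A.Z AP3 and 3520 of H3K27me3, which covered 88.0% of its window. The H2A.Z AP3 regions of Scn3b and Scn4b were absent at 1e-12.

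Gene bodies were called more often than over all genes in each library. H2A.Z WT was found in 122 channel genes (91.0%, interval 85.0 to 94.8), against 61.6%. H2A.Z AP3 was found in 61 (45.5%, interval 37.3 to 54.0), against 22.0%, and H3K27me3 in 93 (69.4%, interval 61.2 to 76.6), against 17.8%. Since the body includes the start, the part over 2 kb from every start of the gene itself was also counted. Starts of other genes inside that part were not removed. There H2A.Z WT was found in 96 (71.6%), against 29.5%, H2A.Z AP3 in 37 (27.6%), against 9.43%, and H3K27me3 in 48 (35.8%), against 8.51%.

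Channel genes are long, and a longer gene has more room for a region. Their median span was 41088 bp, against 15538.5 bp over all genes. Per 100 kb of gene, H2A.Z AP3 was the less frequent in channel genes, at 0.618 regions against 0.758 over all genes. H2A.Z WT had 5.32 regions per 100 kb in channel genes, against 4.24, and H3K27me3 had 1.51, against 0.974. Among genes of 42669 bp or more, the part of the body over 2 kb from every own start had H2A.Z WT in 55 of 65 channel genes (84.6%), against 53.9%. There H2A.Z AP3 was found in 25 (38.5%), against 20.2%, and H3K27me3 in 26, against 14.7% of all such genes. From 15539 to 42668 bp, the shares of 28 channel genes were 89.3%, 17.9% and 42.9%, against 34.3%, 9.89% and 7.51%.

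The bodies of 20 channel genes held 10 or more H2A.Z WT regions. Cacna1c (chr6:118542314-119146249), the L-type channel of heart and brain, held 86 regions covering 22925 bp of its 603936 bp, with 5 regions of H2A.Z AP3 and 3 of H3K27me3. Cacna2d4, an accessory subunit of the retina, held 37 regions covering 22900 bp in 115882 bp, with 4 and 4 of the other libraries. Its longest H2A.Z WT region, 3250 bp within an intron (chr6:119278476-119281725), held 1050 bp of an H3K27me3 region. The midpoint of that region lay 93488 bp from the nearest start of Cacna2d4 itself, a distance that leaves out starts of other genes.

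Cacna1h came next by covered bases, with 13675 bp in 19 regions. Among these 20 genes, Kcnk3 had 43.1 H2A.Z WT regions per 100 kb of gene and Cacna1g had 39.6, against 14.2 in Cacna1c. Kcnma1, Kcnt2, Kcnh8 and Scn7a had spans from 111490 to 504544 bp without an H2A.Z WT region.

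H3K27me3 within gene bodies was spread over several regions in a few members. Kcnq1 held 17 regions covering 3150 bp. Scn8a, the main sodium channel of axon initial segments, had none at its annotated starts but 9 regions covering 4935 bp in its body, with 10 of H2A.Z WT and 2 of H2A.Z AP3. The gene maps place the H3K27me3 of Scn8a in the middle and at the 3′ end of the gene. Upstream of its annotated start no other protein-coding gene lay for 109460 bp. That stretch held 10 H2A.Z WT, 3 H2A.Z AP3 and 4 H3K27me3 regions, the nearest at 18510, 18460 and 60385 bp. Whether the gene model of Scn8a lacks starts there was not tested. Kcnk4, a 2-pore channel, held 3981 bp of H3K27me3 in a body of 8806 bp. Kcng4, a silent subunit on chromosome 8, had an H2A.Z AP3 region of 1275 bp over an exon, of which 1175 bp overlapped H2A.Z WT. The midpoint of that region lay 9308 bp from the nearest start of Kcng4 itself. Cacna1a had the most H2A.Z AP3 of any body, 1825 bp in 4 regions.

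**Figure D5:**
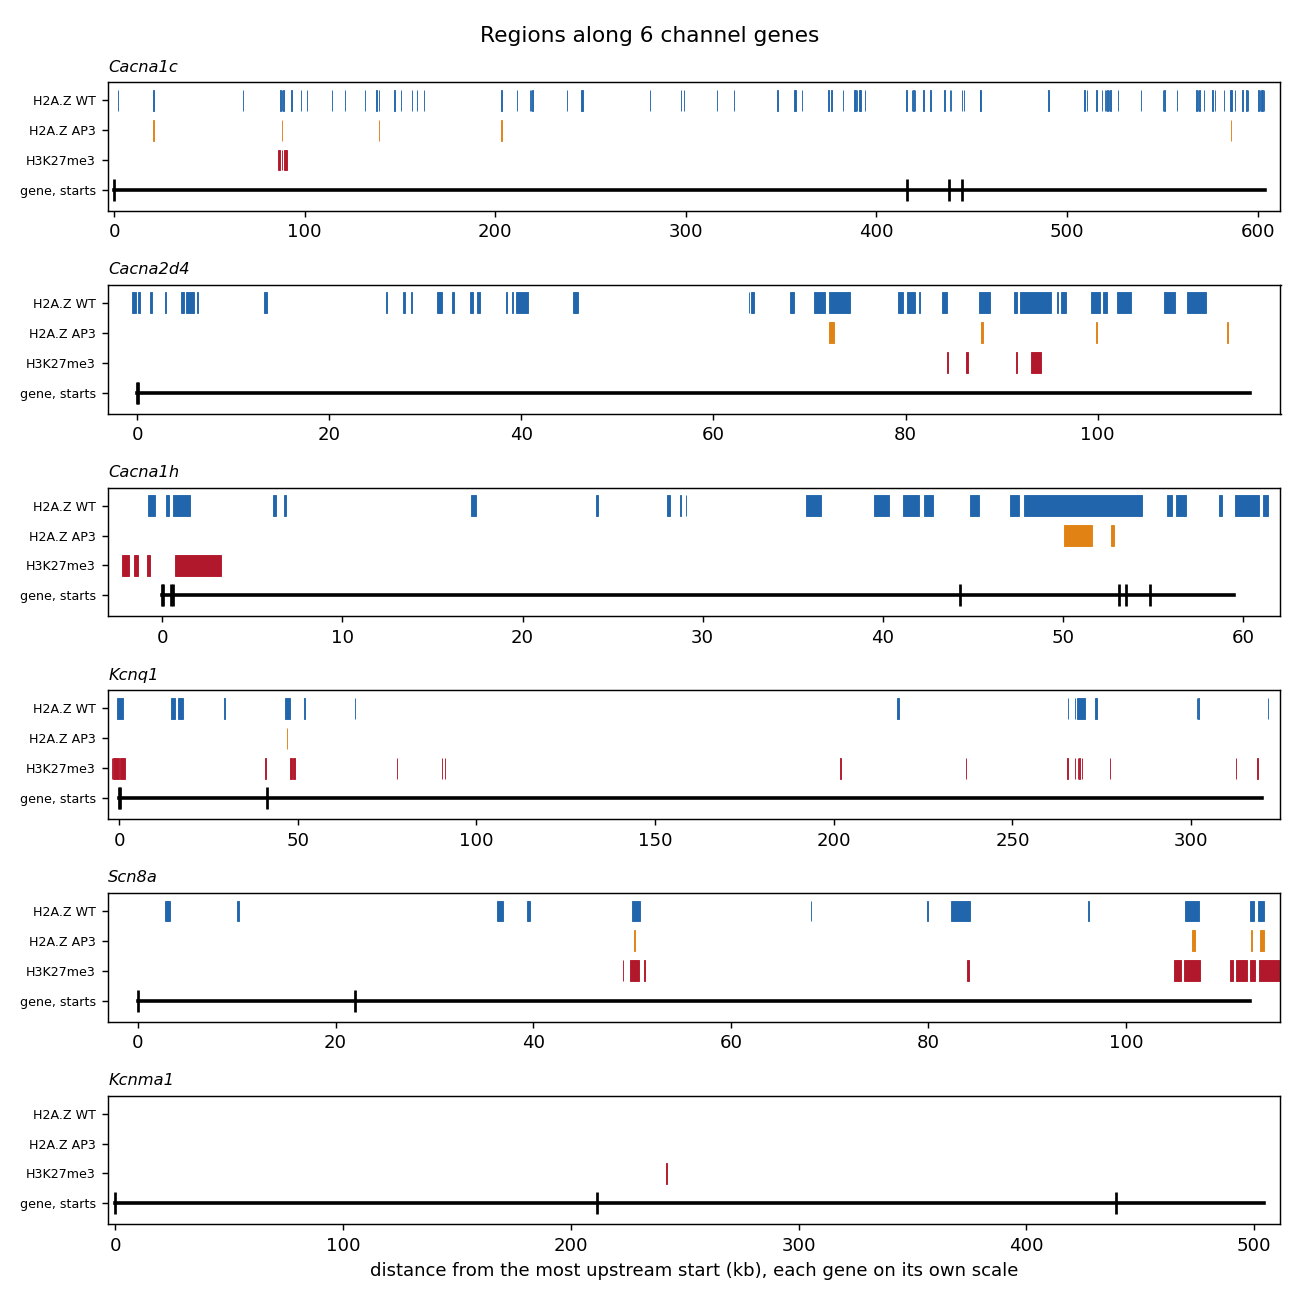
Regions of the 3 libraries along 6 channel genes by distance from the most upstream start (kb, each gene on its own scale), with the gene drawn as a black line and its annotated starts as ticks. Cacna1c is dotted with H2A.Z WT along its whole length, Cacna1h has H3K27me3 at its first starts and H2A.Z AP3 only near starts deep in the gene, Scn8a has H3K27me3 away from its starts, and Kcnma1 holds 1 H3K27me3 region.

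RE1, the element bound by the repressor REST, which keeps neuronal genes off outside neurons, was searched as TTCAGNACC, 2 bases and GGACAG on both strands. It was found in the promoter window of 3 channel genes (2.24%), against 0.302% of all genes. In the body it was found in 9 (6.72%), against 0.761%. Channel genes are longer in the median, which gives their bodies more room for a match. The sites are shown because REST targets are known among these genes. A match describes the letters and not binding, and the strict letters leave out looser forms of the element. The promoter matches were Scn2a1 on the plus strand (chr2:65458021-65458037, outside the gene), Kcnab2 on the minus strand (chr4:151798652-151798668, intron) and Kcnh4 on the minus strand (chr11:100620325-100620341, intron), with the searched letters in capitals.
Scn2a1: TTCAGCACCacGGACAG
Kcnab2: TTCAGCACCcaGGACAG
Kcnh4: TTCAGCACCctGGACAG
Kcnh4, a channel of the ELK group, had its match inside an H2A.Z WT region. The match of Kcnab2 was 932 bp from the nearest H2A.Z WT region and that of Scn2a1 was 2545 bp away. None of the 3 lay in an H3K27me3 region.

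Genes that work with these channels were counted from a list of 28 partners, among them the Hcn pacemaker channels, ankyrins and calmodulins. H2A.Z WT was called at 25 (89.3%), H2A.Z AP3 at 10 (35.7%) and H3K27me3 at 17 (60.7%), beside 85.8%, 29.1% and 65.7% of the channel genes. Hcn4, the pacemaker channel of the sinus node, had 1600 bases of H2A.Z WT, 175 of H2A.Z AP3 and 2726 of H3K27me3. Rest itself, with 124 CpG, had no region in any library. Of 65 ligand-gated channel genes, 46 (70.8%) had H2A.Z WT, 18 (27.7%) had H2A.Z AP3 and 30 (46.2%, interval 34.6 to 58.1) had H3K27me3. Grin2a, an NMDA receptor subunit, had 3750, 200 and 2775 bases.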

How the data were processed

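A single ChIP-Seq library of mouse ESCs was used for each of the 3 groups, assigned from genotype and antibody as labelled. Per the labels and methods, the authors sequenced them on an Illumina GAII, aligned reads to mm9 with Bowtie 0.12.3, extended them to the fragment length, counted them in 25-bp bins and called enriched bins by a Poisson model at 1e-09 with a minimal fold over input. The deposited values are region starts and ends, with no read counts. Each library was called alone. The stricter lists (1e-12) are not described in the methods. The H3K27me3 antibody is given differently in the labels and the methods, and the methods of calling name H2A.Z alone.

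Regions were set against GENCODE vM1 genes on 19 autosomes and X by an overlap of at least 1 bp, in Python 3.11.15 with SciPy 1.17.1 for intervals and Matplotlib 3.10.9 for figures. Gene models sharing a symbol within 1 Mb were joined, so that 137 models gave the 134 genes. Named genes were those with most covered bases per library, the longest regions, the extremes of each subfamily by H2A.Z WT, RE1 matches, H3K27me3 without H2A.Z WT, and a list of well-known channels. Genes outside this rule were named after their values were seen, and some genes the rule takes are not reported here. Members and lists were chosen with earlier results of these data known. Alternatives were the 1e-12 lists, the union of lists, windows of 1 and 5 kb, the most upstream start and starts of protein-coding transcripts. Others were regions of at least 100 bp and the omission of chromosomes 6 and 8. For gene bodies, bases over 2 kb from every start of the gene itself were also used. The groups by CpG count with their alternatives were added after the data were seen, as were the groups by gene length and the search upstream of starts. Counting was tested on simulated lists for 400 genes, and 1200 of 1200 values were recovered. Columns of per-sample values left unused numbered 0.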

Additional observations from a re-analysis of the deposited data

Results flagged for a closer look

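At 5 channel promoters (Kcnab2, Kcng3, Kcnh1, Kcnj3 and Kcnv2) H2A.Z AP3 regions were present in the list at 1e-12 and absent from the list at 1e-09, which the comparisons above do not use. They covered from 25 bases in Kcnh1 to 375 in Kcnv2. Cacnb3 and Cacng1 had H2A.Z WT in the stricter list alone, and none had H3K27me3 in it alone. The lists of a library are thus not nested at these promoters, and the cause was not tested.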

How the results depend on the processing

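Of 95 alternatives over 13 results, 88 stayed close to the reported value, within its interval or within 1.5-fold for counts. In the lists at 1e-12, the share of channel genes with H2A.Z WT that had H2A.Z AP3 was 25.4%, the share with H3K27me3 was 64.9%, and the share of those with both that had H2A.Z AP3 was 24.3%. The median of H2A.Z WT bases was 1137.5 with windows of 5 kb and 600 at the most upstream start. Away from their own starts by over 2 kb, 37 members had H2A.Z AP3 and 48 had H3K27me3 in the gene body. The settings that change the window, the starts or the part of the body alter the bases counted by construction, and for the lists at 1e-12 the cause was not tested. In those lists H2A.Z AP3 was lost at 15 members and gained at 5. No paired analysis was possible because each group has 1 library. Depth is unknown and there is no replicate, so neither biological spread nor the effect of depth on the number of regions could be measured.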
